A study of Homo sapiens with 4 samples.

Results

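The genes described are 9 members of the tumour necrosis factor (TNF) and TNF receptor families that B cells use for survival and for costimulation: the ligands TNFSF13B (BAFF) and CD70, the BAFF-binding receptors TNFRSF13C (BAFF-R), TNFRSF13B (TACI) and TNFRSF17 (BCMA), and the receptors CD27, TNFRSF8 (CD30), TNFRSF9 (CD137) and TNFRSF1B (TNFR2). All probe sets whose platform annotation gives exactly 1 gene symbol among these 9 were taken, which gave 12 of the 54613 probe sets of the array and 9 of the 19775 genes named on it. Expression was measured on 4 oligonucleotide arrays, 1 each for Jeko-1/R, Jeko-1, Raji/R and Raji. Jeko-1 is a human mantle cell lymphoma line and Raji a human Burkitt lymphoma line that carries Epstein-Barr virus. Jeko-1/R and Raji/R are their sublines, which the labels call resistant to rituximab, an antibody against the B-cell surface protein CD20, and describe as treated with it; the parental lines were not treated. Dose, length of treatment and the way the sublines were selected are not given in the sources used here. No group had a replicate, so each lymphoma is represented by 1 line and each resistance by 1 subline.

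BAFF is a survival factor for mature B cells. It binds BAFF-R, which signals mainly through the non-canonical NF-kB pathway, and it shares TACI and BCMA with its relative APRIL; BCMA is best known from plasma cells. CD70 on activated lymphocytes is the ligand of CD27, a receptor found on memory B cells and T cells. CD30, CD137 and TNFR2 are inducible receptors that bind TRAF adaptor proteins and activate NF-kB, and CD30 is a diagnostic marker of Hodgkin and anaplastic large cell lymphoma.

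The promoter sequences of 6 of the 9 genes were in the RefSeq promoter table (GRCh38.p14). The 250 bases before the annotated start are shown, 5' to 3' on the gene's strand, for the 2 receptors with the largest deficit in the Jeko-1 lines and for the 2 that were more than 2-fold higher in Raji/R. TNFRSF9 lies at chr1:7940840-7941089 on the minus strand, CD27 at chr12:6443642-6443891, TNFRSF8 at chr1:12063053-12063302 and TNFRSF1B at chr1:12166741-12166990, all on the plus strand. Capitals mark the letters that match the NF-kB consensus of 10 letters on either strand.
TNFRSF9: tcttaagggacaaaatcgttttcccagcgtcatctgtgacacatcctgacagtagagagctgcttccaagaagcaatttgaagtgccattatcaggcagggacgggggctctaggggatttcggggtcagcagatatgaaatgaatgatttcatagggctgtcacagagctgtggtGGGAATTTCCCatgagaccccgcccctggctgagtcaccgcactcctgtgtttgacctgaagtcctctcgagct
CD27: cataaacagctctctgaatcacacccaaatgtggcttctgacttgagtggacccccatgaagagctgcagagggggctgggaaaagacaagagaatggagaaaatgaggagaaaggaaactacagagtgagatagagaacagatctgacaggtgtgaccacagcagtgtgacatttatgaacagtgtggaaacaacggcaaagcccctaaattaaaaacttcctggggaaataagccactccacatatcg
TNFRSF8: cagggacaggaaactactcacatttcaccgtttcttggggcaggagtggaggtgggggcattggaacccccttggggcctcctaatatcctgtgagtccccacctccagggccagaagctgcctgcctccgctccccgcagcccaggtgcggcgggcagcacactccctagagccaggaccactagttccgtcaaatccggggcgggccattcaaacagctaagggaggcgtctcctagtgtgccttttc
TNFRSF1B: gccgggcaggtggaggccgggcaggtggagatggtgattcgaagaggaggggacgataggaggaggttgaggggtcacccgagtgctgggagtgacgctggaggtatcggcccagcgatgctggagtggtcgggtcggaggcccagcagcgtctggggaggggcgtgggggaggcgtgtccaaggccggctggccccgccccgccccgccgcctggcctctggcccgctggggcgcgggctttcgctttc
The consensus was found in 1 of the 6 promoters, that of TNFRSF9, as overlapping matches on both strands that begin at positions -74 and -73 from the start. It was present in 9.57% of 27305 promoters of the same length. GC content of the 4 sequences was 51.6% for TNFRSF9, 46% for CD27, 61.6% for TNFRSF8 and 72.4% for TNFRSF1B. A match describes these letters and shows no binding.

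Array medians were 6.12, 6.11, 6.59 and 6.18 on the log2 scale in Jeko-1/R, Jeko-1, Raji/R and Raji, so the Raji/R array stood highest. A signal of 77.5, the pooled median of all values, was used as a floor, and 55.6% of probe sets were at or above it on the Raji/R array against 48.0% to 48.3% on the others. Of 6 B-cell markers, 5 had a probe set, and all 5 were above the floor on every array. The mantle cell lymphoma markers CCND1 and SOX11 had signals of 8159 to 15834 on the Jeko-1/R and Jeko-1 arrays and of 6.15 to 35.1, below the floor, on the Raji/R and Raji arrays. The 3 markers of Burkitt lymphoma and germinal centre were above the floor on every array and were mixed. In Jeko-1/R, Jeko-1, Raji/R and Raji, BCL6 had 432, 392, 14566 and 14397.5, and MYBL1 had 286, 250, 424 and 599. MME had 187, 201, 113 and 223, with no clear side. Of 6 T-cell, 4 NK-cell and 6 myeloid markers, 1, 0 and 1 were at or above the floor in Jeko-1/R and 0, 0 and 0 in Jeko-1. In Raji/R 3 of each list were, and in Raji 2 of each, with summed signals of 568 and 507 for T cells, 2045 and 1073 for NK cells, and 789 and 581 for myeloid cells.

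The clearest contrast among the 9 genes was between lymphoma lines. BCMA was 12.6-fold higher in the Jeko-1 lines, whereas CD27 was 39.2-fold, CD70 3.50-fold and TACI 2.06-fold lower there, and CD137 and CD30 were measured above the floor only in the Raji lines. BAFF-R and TNFR2 did not pass the test, and BAFF itself was at the floor in both. Each line was represented by its subline and its parent, and limma was fitted to the 37886 probe sets that reached the floor on any array, with line and resistance as terms and Benjamini-Hochberg adjustment. It called 7 of the 11 member probe sets tested, 1 higher in the Jeko-1 lines and 6 higher in the Raji lines, for 6 of the 9 genes (51.4% of all genes were called). Of all probe sets, 47.1% were called, 25% as higher in the Jeko-1 lines and 22.2% as higher in the Raji lines, so a call as such does not set these genes apart. The arrays of the lines did not overlap for 9 of the 11 member probe sets, against 66.9% of all.

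**Figure D1:**
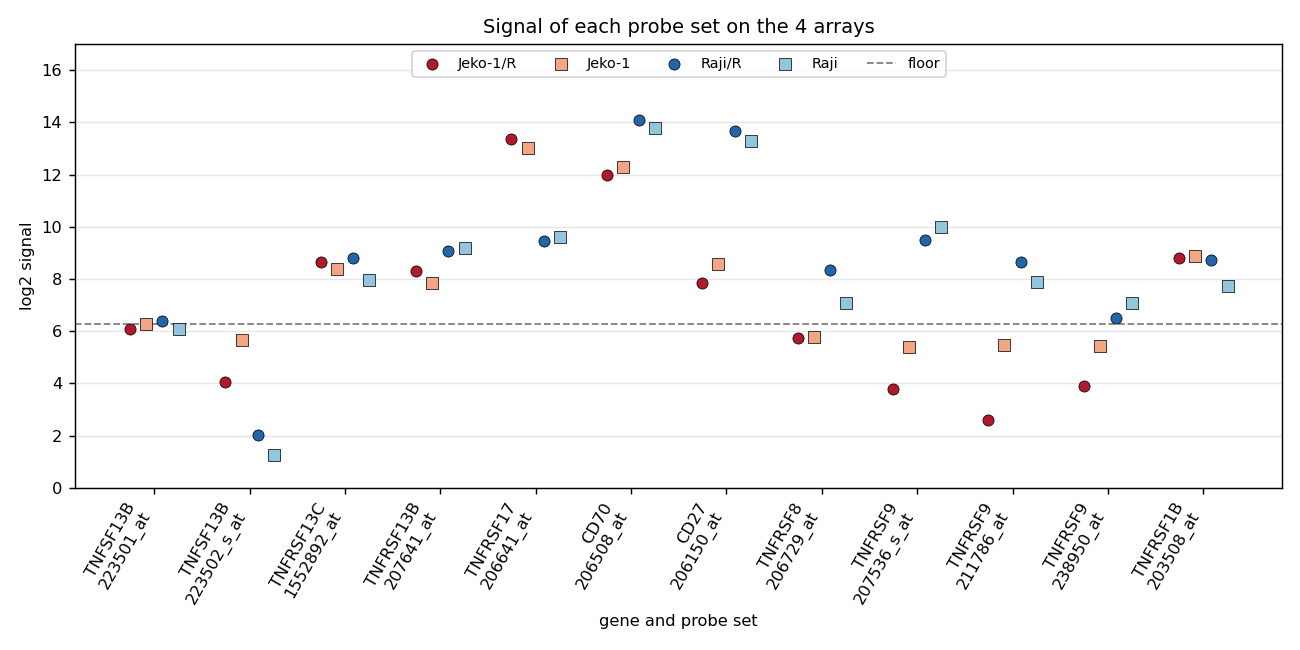
Log2 signal of each of the 12 member probe sets (vertical axis) on the Jeko-1/R, Jeko-1, Raji/R and Raji arrays, 1 point per array, with the floor of 6.28 as a dashed line. TNFRSF17 is highest in the Jeko-1/R and Jeko-1 arrays, CD27 and CD70 are highest in the Raji/R and Raji arrays, and the 3 TNFRSF9 probe sets lie below the floor in Jeko-1/R and Jeko-1.

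These calls rest on the floor and on all 4 arrays. Without a floor, limma called 0 of 54613 probe sets at an adjusted p under 0.05, with 17196 at an unadjusted p under 0.05. With line as the only term, 0 member probe sets were called without the Jeko-1/R array, and 1, that of TNFRSF17, was called without the Jeko-1 array. There were 6 without Raji/R and 6 without Raji, of which 4 were among the 7 named in each case. CD27 lost its call without any 1 of the 4 arrays (adjusted p = 0.0526 to 0.0705), as did CD70 (0.0632 to 0.102) and TACI (0.0779 to 0.204). CD30 lost it without Jeko-1/R (adjusted p = 0.456) and without Jeko-1 (0.453), and so did the called probe sets of CD137 (0.0877 and 0.0853 for 207536_s_at, 0.210 and 0.208 for 211786_at). In these fits the lone array is assumed to vary like the pair left in the other line. Where a Raji array was left out, both Jeko-1 values of CD30 and CD137 had been raised to the floor and carry no spread, so those calls say nothing about stability. An exact permutation test of 2 against 2 arrays cannot give a two-sided p below 0.333, and every member whose lines did not overlap gave that value. A subline and its parent are not independent cultures, so the errors below cover the unequal response of the lines to resistance, not the spread between cultures.

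**Figure D2:**
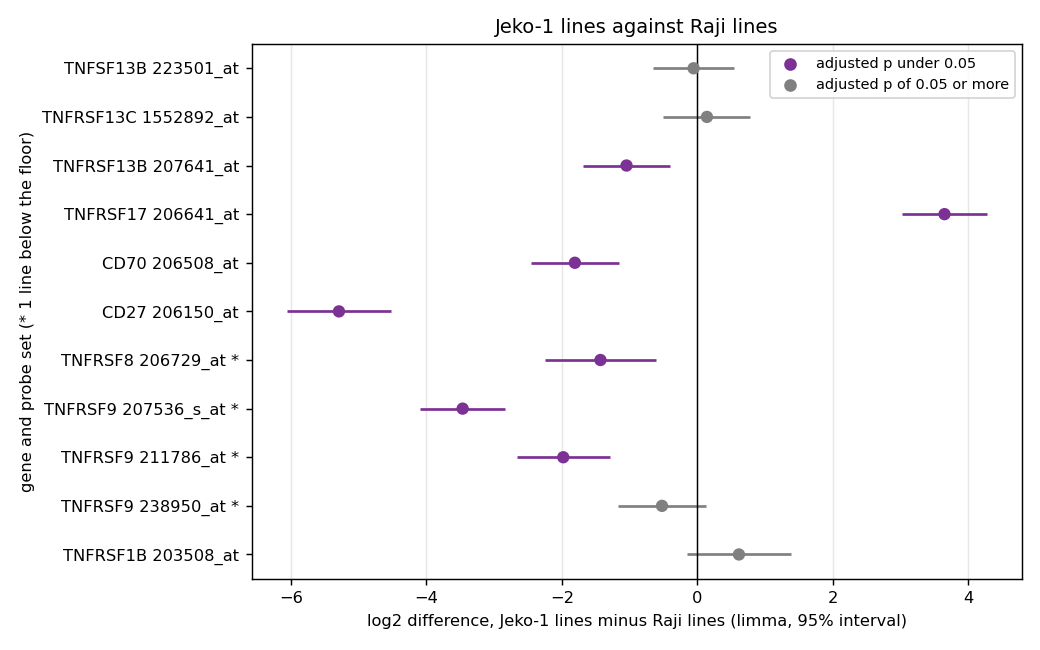
Log2 difference between the Jeko-1 lines and the Raji lines for the 11 member probe sets tested (horizontal axis, limma estimate as a point with its 95% interval), with values below the floor raised to it. The interval of TNFRSF17 lies wholly above 0, those of 6 probe sets lie wholly below 0, and those of TNFSF13B, TNFRSF13C, TNFRSF1B and the TNFRSF9 probe set 238950_at include 0.

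The ligand BAFF was hardly detected. Its probe set 223501_at had a signal of 67.9 in Jeko-1/R, 78.1 in Jeko-1, 84.1 in Raji/R and 67.8 in Raji, so that 2 of the 4 arrays lay just above the floor. The second probe set, 223502_s_at, was below the floor on all arrays, with 16.4 in Jeko-1/R and 50.5 in Jeko-1, against 4.05 in Raji/R and 2.39 in Raji, and was not tested. The line difference of 223501_at was -0.05 (95% interval -0.65 to 0.54, limma adjusted p = 0.884). Values this close to the floor have no order.

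The receptor BAFF-R (TNFRSF13C, 1552892_at), the main transmitter of the BAFF survival signal, was above the floor everywhere and at like levels in both lymphomas. Its signal was 406 in Jeko-1/R and 338 in Jeko-1, against 448 in Raji/R and 252 in Raji. The lines overlapped, with the lowest value in Raji and the highest in Raji/R. The log2 difference between lines was 0.14 (SE 0.27, 95% interval -0.50 to 0.79, limma adjusted p = 0.701), and quantile normalization of the arrays turned its sign, to -0.27.

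TACI (TNFRSF13B, 207641_at), which binds BAFF and APRIL and is known for its part in class switching, was lower in the Jeko-1 lines. Its signal was 320.2 in Jeko-1/R and 232 in Jeko-1, against 536 in Raji/R and 590.2 in Raji, with no overlap. The log2 difference was -1.04 (SE 0.27, 95% interval -1.69 to -0.39, limma adjusted p = 0.0177). Of the 6 genes called it had the smallest difference, and the call was lost when each array was centred on its median (adjusted p = 0.074), with a pseudocount in place of the floor (adjusted p = 0.0719) and, as given above, without any 1 of the 4 arrays.

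BCMA (TNFRSF17, 206641_at) stood the other way. Its signal was 10448 in Jeko-1/R and 8257 in Jeko-1, against 696 in Raji/R and 784 in Raji, so that all 4 arrays detected it and the Jeko-1 lines were far higher. The log2 difference was 3.65 (SE 0.27, 95% interval 3.02 to 4.29, limma adjusted p = 0.000106), a size that 2.05% of all probe sets reached in that direction. The 6 plasma cell markers, which BCMA usually accompanies, were all at or above the floor on every array, and their summed signal was 11429 in Jeko-1/R and 10083 in Jeko-1, against 14279 in Raji/R and 15840 in Raji. They differed among themselves: by their brightest probe sets, 2 were higher in the Jeko-1 lines, the transcription factors IRF4 (24.6-fold, limma adjusted p = 6.91e-05) and PRDM1 (2.30-fold, adjusted p = 0.0204). The other 4 were lower there, namely CD38 (10.6-fold, adjusted p = 0.000125), JCHAIN (5.30-fold, adjusted p = 0.000335), XBP1 (2.03-fold, adjusted p = 0.0182) and SDC1 (adjusted p = 0.0146). Other probe sets of 4 of these genes gave smaller or turned differences. The log2 difference was 0.77 for IRF4, -1.55 to 0.05 for PRDM1, 0.08 for XBP1 and -0.25 for SDC1. The part of the plasma cell markers in the BCMA difference was not tested.

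CD70 and its receptor CD27 were both lower in the Jeko-1 lines. CD70 (206508_at) had a signal of 4043 in Jeko-1/R and 5001 in Jeko-1, against 17337 in Raji/R and 14270.3 in Raji. It was thus well above the floor in both lymphomas, with a log2 difference of -1.81 (SE 0.27, 95% interval -2.45 to -1.16, limma adjusted p = 0.00162). CD27 (206150_at) had a signal of 227 in Jeko-1/R and 376 in Jeko-1, against 13054 in Raji/R and 10032 in Raji. Its log2 difference of -5.29 (SE 0.33, 95% interval -6.06 to -4.52, limma adjusted p = 6.94e-05) was the largest among the 9 genes, and 36 of 37886 probe sets (0.0950%) lay as far in that direction. For a lysate of many cells, fewer cells with a transcript and less transcript per cell cannot be told apart.

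The inducible receptors CD30 and CD137 were below the floor in both Jeko-1 lines. CD30 (TNFRSF8, 206729_at) had a signal of 53.9 in Jeko-1/R and 54.3 in Jeko-1, against 324 in Raji/R and 134 in Raji, which makes it at least 2.69-fold lower in the Jeko-1 lines (limma adjusted p = 0.0128). Without a resistance term the call was lost (adjusted p = 0.0866), as it was without a floor (0.152). Between the parental arrays alone the log2 difference was -0.79, and between the resistant arrays alone it was -2.07, so much of the size came from Raji/R.

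CD137 (TNFRSF9), the receptor whose promoter holds the consensus match shown above, was read by 3 probe sets. The brightest, 207536_s_at, had a signal of 13.6 in Jeko-1/R and 41.7 in Jeko-1, against 721 in Raji/R and 1014 in Raji. It was at least 11.04-fold lower in the Jeko-1 lines (limma adjusted p = 0.000121). Probe set 211786_at had 6.05 in Jeko-1/R and 44.9 in Jeko-1, against 399.6 in Raji/R and 233 in Raji, at least 3.94-fold lower in the Jeko-1 lines (adjusted p = 0.00141) and not called when the floor was raised to the 75th percentile (adjusted p = 0.748). Probe set 238950_at had 14.8 in Jeko-1/R and 43.7 in Jeko-1, against 91.3 in Raji/R and 135 in Raji, and did not pass the test (log2 difference -0.52, adjusted p = 0.166). All 3 were below the floor on both Jeko-1 arrays and above it on both Raji arrays. CD27, CD30 and CD137 are also receptors of T and NK cells. Of 3 tested markers of each, 1 was lower in the Jeko-1 lines: CD4, with 167 in Raji/R and 195 in Raji (at least 2.33-fold, limma adjusted p = 0.00647), and NKG7, with 1749 in Raji/R and 883 in Raji (at least 16.0-fold, adjusted p = 0.000125). NKG7 made up most of the NK-cell sum given above. The markers CD3E, CD2, CD8A and NCR1 were below the floor on all 4 arrays. CD3D, CD3G, NCAM1 and KLRD1 were at or above it on at least 1 array and did not pass the test. The highest signals of CD3D and NCAM1 were 180 and 202, both on the Raji/R array. Those of CD3G and KLRD1 were 143 and 133, both on the Raji array. CD3D also had 94.8 on the Jeko-1/R array.

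TNFR2 (TNFRSF1B, 203508_at), the TNF receptor of lymphoid and myeloid cells, was above the floor on every array. Its signal was 452 in Jeko-1/R and 469 in Jeko-1, against 429 in Raji/R and 210.4 in Raji. The parental Raji array alone stood apart. The line difference was 0.62 (SE 0.32, 95% interval -0.15 to 1.38, limma adjusted p = 0.167), and it passed the test with median centring (0.89, adjusted p = 0.0339).

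Resistance was the comparison the series was made for. Fitted over both lines with cell line as a term, limma called 0 of the 11 member probe sets between resistant and parental arrays, and 0 of 37886 probe sets in all (0%). At an unadjusted p under 0.05 there were 0 member probe sets and 875 probe sets in all (2.31%). The member with the lowest p was TNFRSF13C, with a log2 difference of 0.55 (95% interval -0.09 to 1.19, limma adjusted p = 0.977), and the adjusted p-values of the others lay between 0.977 and 0.999. With 1 residual degree of freedom these counts do not show that resistance left the genes unchanged. Of the 7 member probe sets with a ratio in both pairs, 6 had opposite signs, against 50.6% of all 23475 such probe sets. With quantile normalization it was 5 of 6, against 50.8% of all. Median centring, which lowers each ratio of the Raji pair by up to 0.41, gave 3 of 6, against 49.2% of all. The count thus depends on the scaling, and nothing is read from these signs.

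In the Jeko-1/R array, none of the 7 member probe sets with a value at or above the floor differed 2-fold from Jeko-1, against 1.08% of 27731 probe sets in all. Their log2 ratios ran from -0.73 to 0.46. CD27 lay lowest, with the signals of 227 and 376 given above, a ratio of -0.73 that 3.78% of all probe sets equalled or passed in either direction. A floor set at the 75th percentile of all values, a signal of 367, gave -0.03. TACI had a ratio of 0.46, BCMA 0.34 and BAFF-R 0.27, each under 2-fold, while CD70 had -0.31 and TNFR2 -0.05. Ratios above 0 were found for 3 of the 7 member probe sets and for 14356 of all 27731. Within genes read by several probe sets, the log2 ratios had an SD of 0.27 in this pair (5850 genes). This is the disagreement between probe sets on the same arrays. It holds no spread between cultures or arrays, which is unknown without replicates. CD30 and CD137 were below the floor on both arrays, so no ratio is given.

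In the Raji/R array, 2 of 11 member probe sets were more than 2-fold higher than in Raji and 0 were more than 2-fold lower, against 10.6% of 33630 probe sets in all (7.73% higher, 2.88% lower). CD30 had a signal of 324 in Raji/R against 134 in Raji, 2.42-fold higher (log2 ratio 1.27), and 4.70% of all probe sets lay as far in either direction. TNFR2 had 429 in Raji/R against 210.4 in Raji, 2.04-fold higher (log2 ratio 1.03), and 9.74% lay as far. BAFF-R followed with a log2 ratio of 0.83. Between probe sets of 1 gene the SD was 0.56 in this pair (6850 genes), so a 2-fold change is less than 2 such SDs. The spread between cultures is unknown here too.

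Ratios in the Raji pair spread more widely at low signal. Among probe sets with a mean signal of 128 to 256, where CD30 lies, 19.2% were 2-fold higher in Raji/R and the median log2 ratio was 0.28; between 256 and 512, where TNFR2 lies, 5.11% were. Quantile normalization gave 1.16 for CD30 and 0.92 for TNFR2, median centring 0.86 and 0.62, and a lowess adjustment of the ratio on signal level, added after seeing the data, 1.06 and 0.93. Both ratios therefore kept their direction under these 3 scalings, CD30 passed 2-fold in 2 of them and TNFR2 in none. The median of all probe sets of this pair was 0.11 as deposited and -0.25 with median centring.

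**Figure D3:**
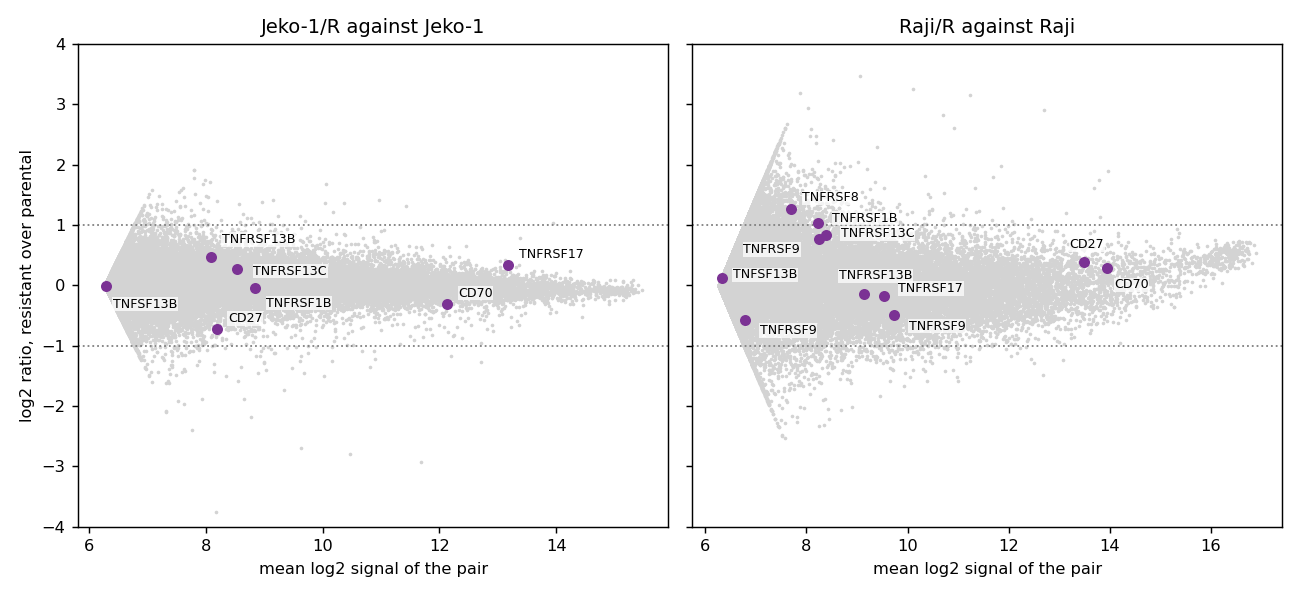
Log2 ratio of resistant over parental signal (vertical axis) against the mean log2 signal of the pair (horizontal axis), for all probe sets with a value at or above the floor (grey) and the member probe sets (purple); dotted lines mark 2-fold. The Raji pair is wider than the Jeko-1 pair at low signal, and TNFRSF8 and TNFRSF1B lie toward that side, at a mean log2 signal of 7.70 and 8.23 in the Raji pair.

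CD27 and CD70 stayed under 2-fold in Raji/R. CD27 had a log2 ratio of 0.38 and CD70 of 0.28, and median centring, which lowers each ratio of this pair by up to 0.41, gave -0.03 and -0.13, so their signs are set by the scaling. TACI had -0.14 and BCMA -0.17. The 3 probe sets of CD137 disagreed, with -0.49 for 207536_s_at, 0.78 for 211786_at and -0.57 for 238950_at, so no direction is given for the gene. The last of them passed 2-fold with quantile normalization and with the lowess adjustment. The median log2 ratio of the 11 probe sets was 0.28 in the Raji pair, and that of the 7 in the Jeko-1 pair was -0.01, against 0.11 and 0.01 over all probe sets.

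**Figure D4:**
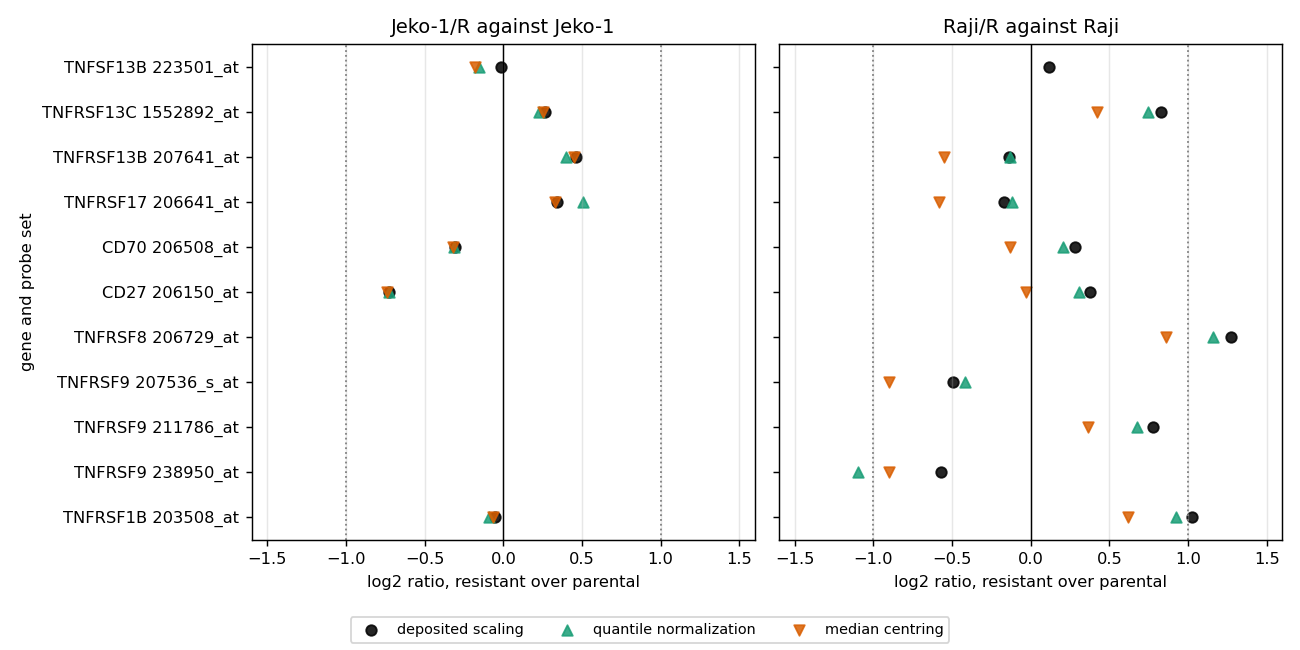
Log2 ratio of resistant over parental signal (horizontal axis) of each member probe set in the Jeko-1 pair (left) and the Raji pair (right) with the deposited scaling, with quantile normalization and with median centring; dotted lines mark 2-fold, and probe sets below the floor have no point. TNFRSF8 and TNFRSF1B pass 2-fold in Raji/R with the deposited scaling, TNFRSF9 238950_at is more than 2-fold lower with quantile normalization, and the 3 scalings spread more in the Raji pair than in the Jeko-1 pair.

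The pathway around the 9 genes was described with 2 lists. The first held 18 other ligands and receptors of the family, of which 17 had a probe set and 16 were tested. Between lines, by brightest probe sets, 0 of the 16 were higher in the Jeko-1 lines and 11 were higher in the Raji lines, against 22.4% and 29% of all 15433 genes, with a median log2 difference of -1.48 against -0.28 over all genes. Among the 11 was TNFRSF4, with -0.94, whose other probe set pointed the other way, at 0.56. LTB, a lymphotoxin subunit, had a signal of 84.6 in Jeko-1/R and 94.1 in Jeko-1, against 11053 in Raji/R and 7797 in Raji (104-fold lower in the Jeko-1 lines, limma adjusted p = 4.86e-05; its other probe set had a log2 difference of -1.46). LTA, the other lymphotoxin subunit, had 7.90 in Jeko-1/R and 7.40 in Jeko-1, against 4058 in Raji/R and 3266 in Raji, at least 47.0-fold lower (adjusted p = 5.21e-05). TNF, the ligand of TNFR2, was at least 7.13-fold lower (adjusted p = 0.000216), with 7.37 in Jeko-1/R and 24.9 in Jeko-1 against 642 in Raji/R and 476 in Raji. CD40, the B-cell receptor for T-cell help, was 6.26-fold lower by its brightest probe set (adjusted p = 0.000236), while its other probe sets ran from -2.71 to 0.92. TNFSF9, the ligand of CD137, had a log2 difference of -2.32 (adjusted p = 0.000771) and was named after its value was seen. APRIL (TNFSF13), likewise named after its value was seen, had 148 in Jeko-1/R and 109.8 in Jeko-1, against 16.5 in Raji/R and 26.7 in Raji, and did not pass the test (adjusted p = 0.06).

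Within the Jeko-1 pair, 0 of the 11 ligands and receptors measured differed 2-fold in either direction (0.915% of all genes did, 0.345% higher and 0.57% lower in Jeko-1/R), and within the Raji pair 2 of 15 were higher and 1 was lower in Raji/R, against 6.86% and 2.62% of all genes (9.47% together). The 2 were LTBR, the lymphotoxin receptor, with a log2 ratio of 1.19 (its other probe sets 0.51 to 0.85), and TNFRSF18, known as GITR, with 1.08; TNFSF14, a ligand of LTBR, was at least 2.09-fold lower. Over both lines, limma called 0 of the 16 between resistant and parental arrays.

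The second list held 18 receptor adaptors and NF-kB components, and all 16 with a probe set were tested. Of these, by brightest probe sets, 4 were higher in the Jeko-1 lines and 6 were higher in the Raji lines, against 22.4% and 29% of all genes, with a median log2 difference of -0.56 against -0.28 over all genes. Among the 6 was TRAF6, with -1.14, whose other probe set pointed the other way, at 0.48. BIRC2, a ubiquitin ligase that joins TRAF complexes, was 7.86-fold higher in the Jeko-1 lines (limma adjusted p = 0.000155), and TRAF5, an adaptor of CD27 and CD30, was 3.41-fold higher (adjusted p = 0.00133). TRAF1, an adaptor of CD30, CD137 and TNFR2, was at least 4.98-fold lower in the Jeko-1 lines (adjusted p = 0.00099, with Jeko-1/R below the floor), and the NF-kB subunit RELA was 3.69-fold lower (adjusted p = 0.000908). MAP3K14 (NIK), the kinase of non-canonical NF-kB signalling below BAFF-R, had 243 in Jeko-1/R and 178 in Jeko-1, against 496 in Raji/R and 780 in Raji (2.99-fold lower, adjusted p = 0.00623; named after its value was seen). Within each pair 1 of the 16 differed 2-fold, against 0.915% of all genes between Jeko-1/R and Jeko-1 and 9.47% between Raji/R and Raji. TRAF1 had a signal of 21.1 in Jeko-1/R against 178 in Jeko-1, a fall of at least 2.29-fold, and TRAF3IP2 was 2.13-fold lower in Raji/R, at 113 against 242 in Raji, while its other probe set had a log2 ratio of 0.03. Limma called 0 of the 16 between resistant and parental arrays.

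**Figure D5:**
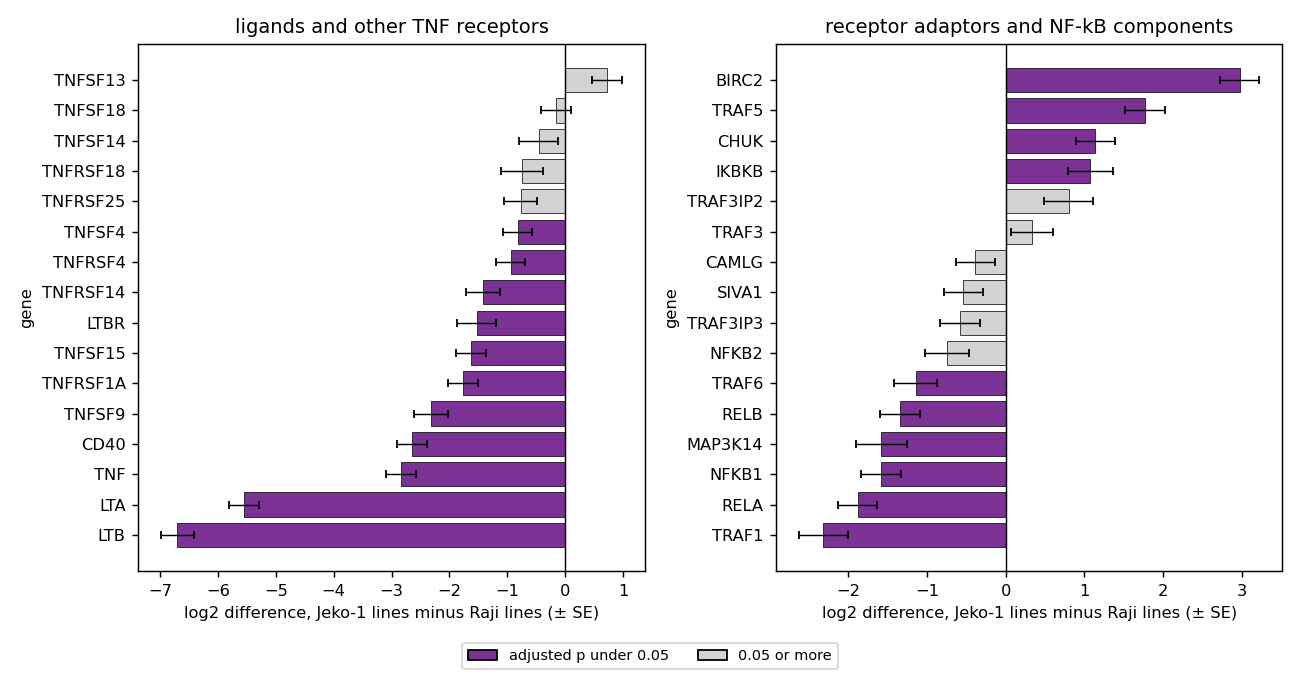
Log2 difference between the Jeko-1 lines and the Raji lines (horizontal axis, bars with the SE of the limma fit) for the 16 tested ligands and other TNF receptors (left) and the 16 tested adaptors and NF-kB components (right), with values below the floor raised to it; purple bars passed the test. Each bar is the brightest probe set of its gene. In the first list all 11 purple bars point to the Raji lines, and in the second 4 point to the Jeko-1 lines and 6 to the Raji lines.

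For the 7 genes that spanned 2-fold or more over the 4 arrays, the genes with the most similar pattern were found by the root mean square difference of log2 values centred over these 4 arrays. The nearest to CD27 were S1PR2, with 125 in Jeko-1/R and 173 in Jeko-1 against 6449 in Raji/R and 4758 in Raji, at a difference of 0.10, and GRN at 0.17; 3 genes in all lay within 0.2. For CD137 these were ZNF232-AS1 at 0.05 and ASPH at 0.08, with 34 genes within 0.2. For TNFR2 they were RCOR2 and PDCD6IPP2 (85 genes within 0.2), for BCMA CYP2R1 and LOC100190986 (128 genes), and for CD30 PPP1R14D and GUCY2D (131 genes). For TACI they were GYS1 and XBP1 (552 genes) and for CD70 MOB3C and RHOH (644 genes). CD137, CD30, ASPH, PPP1R14D and GUCY2D had values raised to the floor on the Jeko-1 arrays, which fixes part of their likeness. With 4 arrays many genes share a pattern, and CD27, with its wide span, had the fewest near it.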

How the data were processed

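Total RNA of 4 cell line cultures was extracted with Trizol and 6 µg was made into biotinylated cRNA for Affymetrix arrays, per the labels' protocols. The authors deposited log2 signals of 54613 probe sets per array, which per the submitters' processing notes come from MAS5 (version not given). Base 2 was taken because signals, trimmed at both ends, then averaged 493 to 497 on every array, as if scaled to 1 target. Detection calls were not used here, and MAS5 scales each array by 1 factor, so drifts with signal level remain. Values of exactly 0 on the log2 scale numbered 14 to 285 an array.

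The platform annotation gave a single symbol to 41091 probe sets, more than 1 symbol to 1801 and no symbol to 11721; symbols of 41037 were matched by gene ID to the RefSeq table of assembly GRCh38.p14, and 0 changed. Groups came from the labels. Values below the pooled median (log2 6.28, signal 77.5) were raised to it; a fold with 1 side below it is a bound, written "at least". Gene-level values are those of the probe set with the highest mean signal. limma 3.58.1 (R 4.3.3) was fitted to all 4 arrays with cell line and resistance as terms, two-sided, which leaves 1 residual degree of freedom; the pairing of subline and parent comes from the cell lines. Within a line, 1 array per group allows no test, and 2-fold is the size that counted. Tables were handled with pandas 2.3.3 and numpy 2.4.6 (Python 3.11.15), permutation tests were run with scipy 1.17.1, the lowess step with statsmodels 0.14.6 and plots with matplotlib 3.10.9. The fit was tested on simulated data with the same spread for all probe sets, which real probe sets need not share. There it recovered 0% of 2-fold changes, and of 8-fold changes 75% between lines and 73% between resistant and parental arrays.

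The members, lists and tests were chosen with earlier results of these data known. Named were all member probe sets, up to 4 genes of each list with the largest called difference per comparison, and the 2 most similar genes per member. Alternatives were quantile normalization, median centring, a floor at the 75th percentile, no floor, a pseudocount of 32, no x_at or s_at probe sets, other terms, each array left out, and a lowess adjustment (fraction 0.3) added after seeing the data. The number of arrays limits the precision. Promoters of TNFRSF13C, TNFRSF17 and CD70, and protein sequences, were not analysed here.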

Additional observations from a re-analysis of the deposited data

How the results depend on the processing

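With 1 array per group, results were recomputed under each alternative scaling, floor and choice of arrays. Between the lines, 17860 probe sets and 7 member probe sets were called; without a floor these became 0 and 0, and without x_at and s_at probe sets 11000 were called, from fewer probe sets tested (6 members). Leaving out 1 array gave 2411 to 19727 probe sets and 0 to 6 members: 0 without Jeko-1/R, 1 without Jeko-1, 6 without Raji/R and 6 without Raji. The cause of the loss without a floor was not tested. Quantile normalization kept all 7 members, median centring 6 of them. Between resistant and parental arrays, 0 were called under every alternative that held a resistance term, also when the cell line term was left out (0, with 38 at an unadjusted p under 0.05). Fits with 1 array left out held no resistance term. With 1 residual degree of freedom, or 2 without the cell line term, these zeros say nothing about stability.

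The count of probe sets that differed 2-fold in the Jeko-1 pair (300) was 192 with quantile normalization, 47 with a floor at the 75th percentile, 12730 with no floor, 551 with a pseudocount and 190 after probe sets ending in x_at or s_at were left out; with no floor it held 4 member probe sets, all below the floor on both arrays. In the Raji pair (3569) it was 264 with the higher floor, 21254 with no floor and 7397 with a pseudocount, and the 2 members became 0 with median centring, 0 with the higher floor and 1 with a pseudocount. The share of these probe sets that were higher in Raji/R was 72.8% as deposited, 50.6% with quantile normalization, 24.5% with median centring and 27.7% with the lowess adjustment; the share of line calls higher in the Jeko-1 lines was 53.0% as deposited, 49.0% with quantile normalization and 61.7% with median centring.

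Some directions turned. Line differences turned for TNFSF13B (0.076 with quantile normalization, 0.089 with median centring, -0.11 to 0.0059 with 1 array left out, 0.012 on parental arrays only) and for TNFRSF13C (-0.27 with quantile normalization, -0.069 with the higher floor, -0.27 to 0.56 with 1 array left out, -0.14 on resistant arrays only). Differences between resistant and parental arrays turned for TNFSF13B (-0.076 with quantile normalization, -0.089 with median centring), TNFRSF13B (-0.050 with median centring, -0.069 with the higher floor), TNFRSF17 (-0.13 with median centring), CD27 (0.17 with the higher floor) and TNFRSF9 211786_at (-1.06 with no floor, -0.16 with a pseudocount). Of the remaining values of single probe sets, 270 kept their sign and, where tested, their side of the test threshold. That count did not consider the 2-fold mark, which some ratios of the Raji pair crossed. TNFRSF1B fell below it with quantile normalization (0.92), median centring (0.62), a pseudocount (0.93) and the lowess adjustment (0.93). TNFRSF8 fell below it with median centring (0.86), and TNFRSF9 238950_at passed it with quantile normalization (-1.09). Another 2 turned sign by less than the spread between probe sets (CD27 and CD70 in the Raji pair with median centring, -0.03 and -0.13), 30 lost the call, 6 gained it and 6 moved in size.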

Other observations

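Several of the 9 genes neighbour family members or each other in the annotation of GRCh38.p14, and their values are given here side by side; these genes were chosen after their values were seen. TNFRSF8 and TNFRSF1B are adjacent on chromosome 1 and are the 2 members more than 2-fold higher in Raji/R, with log2 ratios of 1.27 and 1.03. The genes around them had log2 ratios in the Raji pair of 0.21 for KIAA2013, 0.33 for PLOD1, -0.04 for MFN2, 0.21 for MIIP and 0.58 for VPS13D. DHRS3 had at least 0.15, with 85.9 in Raji/R and 12.1, below the floor, in Raji.

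Between lines, 51.4% of all genes were called, 22.4% as higher and 29% as lower in the Jeko-1 lines. Of the genes up to 4 places to either side, 3 of 7 tested around CD70 on chromosome 19 were lower in the Jeko-1 lines: TNFSF9 (log2 difference -2.32, limma adjusted p = 0.000771), CRB3 (adjusted p = 0.03) and DENND1C (-0.98, adjusted p = 0.0196). Around CD27 on chromosome 12, 4 of 8 were lower: TNFRSF1A (-1.76, adjusted p = 0.00139), LTBR (-1.53 with both Jeko-1 values raised to the floor, adjusted p = 0.00837), VAMP1 (-1.33, adjusted p = 0.00502) and MRPL51 (-1.25, adjusted p = 0.0063). The other 2 probe sets of LTBR had smaller line differences, -0.42 and -0.26. Around TNFRSF9 on chromosome 1, 5 of 7 were lower and 1, ERRFI1, was higher. The gene next to it, UTS2, had a signal of 24.8 in Jeko-1/R and 5.37 in Jeko-1, against 786 in Raji/R and 896 in Raji. Around TNFRSF17 on chromosome 16, 3 of 7 were higher in the Jeko-1 lines: ZC3H7A (1.66, adjusted p = 0.00187), RSL1D1 (1.59, adjusted p = 0.00192) and ERCC4 (1.21, adjusted p = 0.0292). For TNFRSF8, 4 of 7 were lower, and for TNFRSF13B, 2 of 4 were. Members not called themselves had called neighbours too: 4 of 6 were lower around TNFRSF1B and 3 of 5 were higher around TNFSF13B. The stretches around TNFRSF8 and TNFRSF1B overlap, so their counts are not separate. The lower genes around TNFRSF1B were TNFRSF8 itself and PLOD1, MFN2 and MIIP, which were also counted around TNFRSF8. For TNFRSF13C, 0 of 6 were called. A link between a member and its neighbours was not tested.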
